A study of Mus musculus with 18 samples.

Results

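Dentate gyrus granule neurons were picked out of single-nucleus RNA sequencing of the mouse hippocampus (Hip) and described gene by gene in mice without gut microbes (germ-free, GF), in specific pathogen free mice (SPF) and in GF mice given microbes (colonized, CGF). Members were chosen by their raw unique molecular identifiers (UMIs, 1 per captured RNA molecule): at least 2 for Prox1, at least 1 over Dsp, C1ql2 and Trpc6 together, at least 1 for Slc17a7, at most 1 over Gad1 and Gad2, and at most 1 over the glial and vascular genes Mog, Mag, Aqp4, Gja1, Csf1r and Flt1. By this rule 4722 of the 71398 hippocampal nuclei with at least 200 genes and at most 10% mitochondrial UMIs were granule neurons (6.61%, exact 95% binomial interval 6.43 to 6.80), of 138000 such nuclei in the whole series. The series holds 1 Hip and 1 prefrontal cortex (PFC) library from each of 9 Kun Ming mice, 3 per group, all sampled at 8 weeks of age. GF mice had no gut microbes and lived in isolators, CGF mice were GF mice that were housed together with SPF mice in an isolator before sampling, and SPF mice carried their usual microbes and were raised in other conditions. Colony and housing therefore came with the group, and their part in any difference from SPF cannot be told apart from that of the microbes. The replicate was the mouse in every test, with n = 3 per group.

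Granule neurons are the principal excitatory cells of the dentate gyrus. They receive the cortical input to the hippocampus and send mossy fibres, axons with large zinc-rich terminals, to CA3 pyramidal cells and hilar mossy cells. They are known for sparse firing and for being among the few neurons that are still born in adult rodents. Prox1 is the homeobox factor that sets their fate, Dsp encodes the junction protein desmoplakin, C1ql2 a C1q-like protein secreted at mossy fibre synapses, Trpc6 a cation channel, and Slc17a7 the vesicular glutamate transporter VGLUT1.

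The 9 hippocampal libraries held 49067853 to 63217083 UMIs, of which 3.21e+06 to 6.20e+06 came from granule neurons. The median depth of a granule nucleus was 8401, 8165 and 8602.5 UMIs in the SPF mice, 6952, 6660 and 7250 in the GF mice and 9854, 8258 and 7862.5 in the CGF mice, always in the order of mouse numbers 30, 31 and 32, then 5, 6 and 7, then 17, 18 and 19. Mouse numbers are those of the labels; the sources differ on which library is GF mouse 6 and which GF mouse 7, and since both are GF no group value depends on it. The GF mice were the shallowest, and the 3 groups differed in depth (exact permutation test over the 3 groups, 2-sided p = 0.032), whereas GF against SPF alone gave the smallest p that 3 against 3 mice allow, 0.1. Mitochondrial UMIs made up 0.163%, 0.109% and 0.355% of the granule UMIs in SPF, 0.765%, 0.936% and 1.32% in GF, and 0.0550%, 0.0956% and 0.153% in CGF (exact permutation test over the 3 groups, p = 0.00714). No GF mouse overlapped another group in this share. Any pair of hippocampal libraries shared 9 to 29 barcodes, at most 0.353% of a library, and 6 member barcodes recurred in 6 pairs. Doublets were not called; 288 members had over 2 times the median UMIs of the members of their library and were left out in an alternative.

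**Figure D1:**
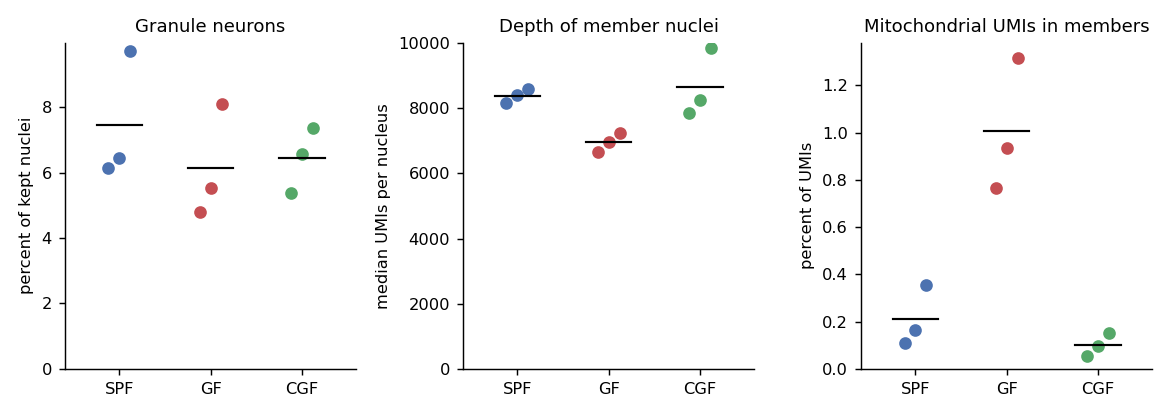
Nuclei that met the granule rule as a percent of kept hippocampal nuclei (left), their median UMIs per nucleus (middle) and the percent of their UMIs from mitochondrial genes (right). Each point is a mouse and each line the mean of 3 mice; the shares overlap between groups, and the GF mice lie lowest in depth, at 6660 to 7250, and highest in mitochondrial share, at 0.765% to 1.32%.

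The label was first checked in tissue that has no dentate gyrus. In PFC the same rule took 19 of 66602 nuclei (0.0285%, exact 95% binomial interval 0.0172 to 0.0445). The rule depends on depth, and the PFC libraries of SPF and CGF mice were shallower. Their median depths were 2353 to 3208 UMIs per kept nucleus, against 4678 to 7579 in the hippocampal libraries. In the PFC libraries of GF mice, at 6795.5 to 7426.5 UMIs, the rule took 4 of 7872, 4 of 7640 and 1 of 9055 nuclei. At the edge of the rule, 1823 members had exactly 2 Prox1 UMIs, while 2790 hippocampal nuclei passed every other criterion but had 1. The members with 2 had 952 CPM (UMIs of a gene scaled to a common total for the class) of Synpr and 50.1 of Man1a, and those just outside had 747 and 142.

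Genes that the rule did not use also set the members apart. Here and in the next paragraph values are plain CPM, means of 9 libraries, and they are descriptions, because nuclei chosen for some genes differ in every gene that goes with them. The comparison class was 16945 other glutamatergic nuclei, with Slc17a7 but no Prox1, Dsp, C1ql2 or Trpc6. The largest ratio among genes of at least 50 CPM was that of Lgr6, a receptor of R-spondins, with 100.1 ± 8.93 CPM (SD, n = 9) in granule neurons and 4.06 in the other class. Stra6, a retinol receptor, was 16.7 times higher, at 56.6 against 3.38 CPM. The transcription factor gene Glis3 had 711 against 45.4, the RNA-editing family gene Adarb2 1614 against 108, and Synpr, which encodes the mossy fibre vesicle protein synaptoporin, 1020 against 111. Prox1os had 79.6 against 4.06 but overlaps Prox1 on the opposite strand, so that its reads may come from either gene. Dock10, which guides Rac and Cdc42 signalling, had 943 against 68.0 CPM, yet it was higher still in oligodendrocyte-marker nuclei, at 1977.

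The classical granule markers outside the rule pointed the same way. Calb1, for the calcium buffer calbindin, had 139 CPM against 36.4, the ciliary factor gene Rfx3 had 1939 against 269, and the Notch co-activator gene Maml2 had 994 against 149. Zbtb20, a factor of all hippocampal excitatory neurons, differed less, with 4302 against 2274 CPM. Neurod1 had no UMI in any of these classes. Of genes that mark pyramidal cells, Mpped1 had 18.6 CPM in granule neurons against 132 in the other class, and Man1a 46.0 against 372. Genes of CA2 and CA3 were less separate. Grik4, a kainate receptor subunit, had 296 against 383 CPM. Also lower in granule neurons were Cdh24 (3.62 against 12.0), Bok (7.56 against 12.2), Amigo2 (1.99 against 3.03) and Coch (2.48 against 3.02). Rgs14 (19.1 against 15.6), Cacng5 (7.07 against 3.65) and Iyd (3.02 against 2.02) were higher in granule neurons. CA1-marker nuclei were those of the other class with at least 2 UMIs over Mpped1 and Fibcd1 and none over Iyd, Coch, Cdh24 and Plagl1, and CA3-marker nuclei the reverse, so that these 6 genes say nothing about them.

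**Figure D2:**
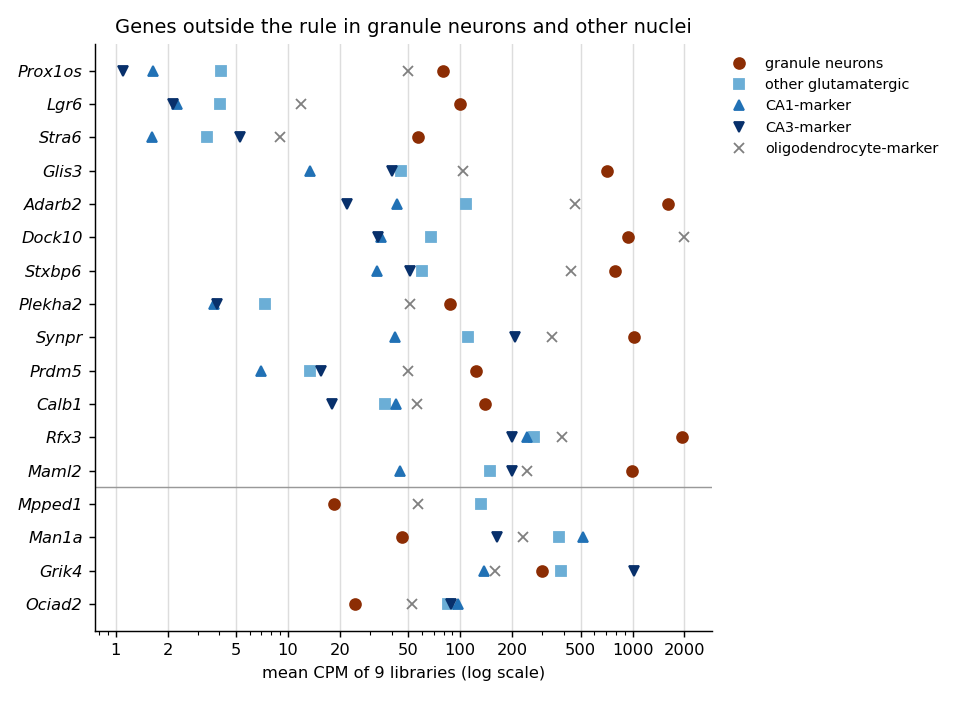
Mean CPM of 9 hippocampal libraries (log scale) of 17 genes that the rule did not use, in granule neurons, other glutamatergic nuclei, their CA1-marker and CA3-marker subsets and oligodendrocyte-marker nuclei. The upper genes lie far to the right in granule neurons, as Lgr6 at 100.1 against 4.06 CPM in the other class, and the pyramidal genes below the line lie to the left, far for Mpped1 at 18.6 against 132 and little for Grik4 at 296 against 383, with Mpped1 drawn without the subsets that it helped to choose.

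Markers of other cells were present in the granule neurons, some of them at levels near those of the other glutamatergic class. The summed CPM per mouse of 10 genes of CA2 and CA3 ranged from 309 to 428, against 488 to 577 in the other class, whereas 6 genes of CA1 ranged from 77.7 to 135 against 486 to 702. Of glial lists, 4 astrocyte genes ranged from 216 to 393 against 350.4 to 765, and 3 oligodendrocyte genes from 152 to 302 against 120.1 to 334. Neurogenic genes ranged from 71.4 to 107, Cajal-Retzius genes from 5.22 to 17.7 and endothelial genes from 4.28 to 7.59. The sums ranged from 7.89 to 16.2 for 4 mossy cell genes, from 4.85 to 16.2 for 3 genes of oligodendrocyte precursors, from 14.7 to 30.8 for 4 microglial genes and from 79.8 to 139 for 7 interneuron genes. Choroid plexus genes, nearly all of it Ttr, ranged from 101 to 639 in SPF, 10.6 to 1737 in GF and 18.3 to 234 in CGF, and over the 9 mice from 8.65 to 2170.6 in the other glutamatergic class and from 24.4 to 4690 in oligodendrocyte-marker nuclei. For comparison, genes were also read in nuclei with at least 2 UMIs of the myelin genes Mog and Mag, in which a UMI of a neuronal gene can come from free RNA. For genes that oligodendrocytes express themselves, such as Dock10, Sema6a and Erbin, these nuclei do not measure free RNA. No limit was set on neuronal genes in these nuclei, and no doublets were left out of them. A neuronal UMI in them is therefore no measure of free RNA alone. The oligodendrocyte-marker nuclei had median depths of 2014 to 3199 UMIs, and Slc17a7 stood at 194 CPM in them against 256 in granule neurons.

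The share of nuclei that met the granule rule did not differ between groups beyond the spread of the mice. It is not the share of all granule neurons. Nuclei left out only for having 1 Prox1 UMI had 1264 plain CPM of Adarb2, against 1614 in members and 108 in the other class. With 1 Prox1 UMI required, the mean shares were 11.3% in SPF, 10.3% in GF and 10.2% in CGF. Under the rule, members made up 6.46%, 9.73% and 6.15% of the hippocampal nuclei of the SPF mice, 8.09%, 4.80% and 5.54% in GF, and 6.57%, 5.39% and 7.36% in CGF. The means were 7.45% ± 1.98 (SD, n = 3), 6.15% ± 1.73 and 6.44% ± 0.991 (exact permutation test over the 3 groups, 2-sided p = 0.646; pairs, exact p = 0.5 for GF against SPF, 0.7 for CGF against SPF and 0.9 for GF against CGF, 0.9 for all 3 after Benjamini-Hochberg adjustment). The threshold of 2 Prox1 UMIs depends on depth: with every nucleus thinned to 3000 UMIs the rule kept 963 members, or 2.00% in SPF, 1.87% in GF and 1.49% in CGF, and the order of GF and CGF turned.

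UMIs of the granule neurons were summed per mouse and compared by edgeR's quasi-likelihood test with Benjamini-Hochberg adjustment, with a threshold of 0.05. From here on a level is in CPM after TMM scaling (edgeR's correction of library size for composition), and a difference is a log2 fold change with its standard error (SE). GF granule neurons differed widely from SPF: 5568 of 13261 genes tested passed (42.0%), of which 2971 rose (22.4%) and 2597 fell (19.6%). The change was at least 2-fold in 1002 that rose and 254 that fell, and the median over all genes tested was 0.01. Far fewer genes passed for CGF against SPF, 136 (1.03%), 91 higher and 45 lower. An unadjusted p under 0.05 was found for 1963 of the 13261 genes, a larger share than the 0.05 that no difference would give. Smaller differences between CGF and SPF may therefore have been missed. GF against CGF gave 5883 genes (44.4%), of which 3080 were higher in GF (23.2%) and 2803 lower (21.1%). The comparisons share mice, so that they are not independent of one another. Counts below for a gene list are to be read against these shares of all genes.

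The genes that rose in GF were short and those that fell were long. The median gene span was 10.9 kb for those that rose, 92.001 kb for those that fell and 27.4 kb for the rest. After each library's dependence on the length and GC content of genes had been fitted and taken out, 3366 genes passed, of which 1832 rose (13.8%) and 1534 fell (11.6%). Counts without this trend are given beside those of the lists and are to be read against these shares. The GF change was also not particular to this cell type: in the other glutamatergic neurons 23.3% of 16978 genes rose and 19.2% fell.

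Among genes averaging at least 20 CPM that the rule did not use, Scg2 had the largest rise in GF. It encodes secretogranin II, a precursor of neuropeptides in dense-core vesicles. Its level was 26.3, 31.4 and 31.9 CPM in the SPF mice, 155, 181 and 183 in GF and 30.4, 29.1 and 39.4 in CGF. Every GF mouse lay above every other mouse, with a log2 difference from SPF of 2.52 (SE 0.12, adjusted p = 1.1e-07 by edgeR's quasi-likelihood test), and CGF differed from SPF by 0.14 (SE 0.13, adjusted p = 0.66). The rise passed the threshold in all 16 alternatives, at 1.92 to 2.63. At 3000 UMIs per nucleus, Scg2 was found in 36.8% of GF granule nuclei (mean of 3 mice, range 33.8% to 42.6%) against 19.95% of GF oligodendrocyte-marker nuclei, while the SPF share of 9.59% was no higher than the 10.8% of such nuclei. Without thinning it was found in 58.7% to 69.0% of GF and 19.9% to 24.5% of SPF granule nuclei.

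C1ql3, of the mossy fibre list, also rose. It encodes a secreted C1q-like protein which, with its relative C1ql2, bridges mossy fibre terminals to kainate receptors. The SPF mice had 175, 173 and 175 CPM, the GF mice 574, 631 and 610, and the CGF mice 152, 184 and 182. The log2 difference GF against SPF was 1.79 (SE 0.08, adjusted p = 1.1e-07, edgeR), and that of CGF against SPF was -0.01 (SE 0.08, adjusted p = 0.96). At 3000 UMIs C1ql3 was found in 80.1% of GF and 39.5% of SPF granule nuclei, against 30.1% and 17.1% of oligodendrocyte-marker nuclei; without thinning the granule shares were 94.1% to 97.2% and 68.4% to 70.3%. Its partner C1ql2, which the rule used, had 10.0, 12.4 and 16.2 CPM in SPF, 36.3, 44.9 and 53.9 in GF and 7.42, 12.9 and 13.7 in CGF. These values are only described, since a C1ql2 UMI could make a nucleus a member.

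Of the other rule genes, Prox1 stood at 386 to 449 CPM in SPF, 381 to 388 in GF and 384 to 431 in CGF, with a median of 3 UMIs per member in each library. Trpc6 had 310, 371 and 327 CPM in SPF, 260, 232 and 253 in GF and 447, 356 and 405 in CGF. Dsp overlapped between all groups, at 53.7 to 75.3, 56.3 to 62.0 and 46.4 to 67.3 CPM.

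The promoters of Scg2, C1ql3 and Pcdh8 are shown because these genes rose more in granule neurons than in other glutamatergic neurons of GF mice, as given further on. Pcdh8 encodes an activity-regulated protocadherin that trims synaptic cadherins. The sequences run 5′ to 3′ on the coding strand from 250 bases before to 50 bases after the RefSeq gene start (GRCm38.p6); capitals mark the cAMP response element (TGACGTCA) or its 5-base part (TGACG, or CGTCA for the other strand).
Scg2 promoter, chr1:79439977-79440276, minus strand: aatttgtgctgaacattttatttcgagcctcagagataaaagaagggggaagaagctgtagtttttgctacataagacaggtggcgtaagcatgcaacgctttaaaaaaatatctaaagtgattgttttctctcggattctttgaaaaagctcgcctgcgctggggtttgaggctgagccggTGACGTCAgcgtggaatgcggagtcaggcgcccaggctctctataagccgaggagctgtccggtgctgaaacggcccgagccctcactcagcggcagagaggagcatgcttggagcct
C1ql3 promoter, chr2:13010815-13011114, minus strand: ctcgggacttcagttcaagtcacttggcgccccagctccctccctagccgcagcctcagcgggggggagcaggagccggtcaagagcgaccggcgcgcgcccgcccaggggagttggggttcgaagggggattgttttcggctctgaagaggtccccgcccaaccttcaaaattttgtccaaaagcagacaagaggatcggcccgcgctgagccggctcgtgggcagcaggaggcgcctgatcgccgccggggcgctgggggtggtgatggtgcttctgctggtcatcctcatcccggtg
Pcdh8 promoter, chr14:79771263-79771562, minus strand: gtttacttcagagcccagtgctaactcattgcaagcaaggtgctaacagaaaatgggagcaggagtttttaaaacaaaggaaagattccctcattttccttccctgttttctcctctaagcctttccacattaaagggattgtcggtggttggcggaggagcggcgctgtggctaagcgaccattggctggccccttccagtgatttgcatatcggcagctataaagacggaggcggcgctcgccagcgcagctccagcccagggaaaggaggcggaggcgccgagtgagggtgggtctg
Scg2 holds 1 full element, which begins 68 bases before the start; the reverse complement of the full element is the same sequence, and both of its 5-base parts lie within it. The full element occurs in 588 of 32851 promoters of this length (1.79%) and in 354 of the 9819 tested genes with a promoter entry (3.61%), and the 5-base part on either strand in 6837 (20.8%) and 3469 (35.3%). C1ql3 and Pcdh8 have neither in these windows, which says only that the letters are not there.

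Mossy fibre terminal genes went both ways. Of 22 tested, 3 rose and 10 fell in GF, with a median of -0.20, against 0.01 for all genes; without the length and GC trend 4 rose and 2 fell, and without SPF mouse 32, 5 rose. Slc30a3, the transporter that loads zinc into mossy fibre vesicles, had 45.1, 57.2 and 50.4 CPM in SPF, 84.9, 106 and 103 in GF and 36.4, 37.9 and 50.2 in CGF, a rise of 0.93 in GF (SE 0.13, adjusted p = 0.00017, edgeR). At 3000 UMIs it was found in 26.5% of GF and 13.8% of SPF granule nuclei, and in 8.94% and 6.64% of oligodendrocyte-marker nuclei (unthinned granule shares 47.7% to 55.4% and 30.97% to 36.6%). The priming factors of the active zone fell: Rims1 by 0.47 on the log2 scale (SE 0.08; -0.09 without the length and GC trend, adjusted p = 0.45) and Unc13a by 0.56 (SE 0.08), from 142 to 150 CPM in SPF to 93.2 to 105 in GF. In other glutamatergic neurons 4 of 22 rose and 7 fell. Slc30a3 rose there too, by 1.304 on the log2 scale in GF against SPF (adjusted p = 5.5e-05, edgeR). Its rise was therefore not particular to granule neurons, where it was smaller.

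Granule markers outside the rule tended down in GF, with 7 of 12 tested falling, none rising and a median of -0.28. Zbtb20 had 4631, 4795 and 4913 CPM in SPF, 3580, 3046 and 3464 in GF and 4826, 4951 and 4936 in CGF, and fell by 0.51 on the log2 scale in GF (SE 0.07, adjusted p = 0.00012, edgeR). Without the length and GC trend it differed by -0.12 (adjusted p = 0.22). Glis3 fell by 0.56 (SE 0.11), with 691 to 801 CPM in SPF and 438 to 586 in GF. Only 1 of the 12 fell, and 1 rose, without the length and GC trend, where Glis3 had its smallest difference of the 16 alternatives, -0.18 (adjusted p = 0.23). In other glutamatergic neurons 5 of 12 fell and none rose, with -0.65 for Zbtb20 (SE 0.14) and -1.09 for Glis3 (SE 0.40). In granule neurons Dcx, for doublecortin of immature neurons, fell by 1.44 (SE 0.25), at 23.3 to 36.8 CPM in SPF against 7.19 to 11.6 in GF. Its plain CPM in SPF granule neurons, a mean of 27.6, was no higher than in SPF oligodendrocyte-marker nuclei (32.7) and below that in the other class (57.3), and the means were lower in GF in all of them, at 10.7, 17.6 and 35.2. Of the 6 neurogenic genes tested, 1 rose and 1 fell, and without the trend 1 rose and 3 fell; none rose without GF mouse 7, SPF mouse 30 or SPF mouse 31, and 2 fell without GF mouse 7.

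Receptor genes for glutamate and GABA mostly fell. Of 22 glutamate receptor genes, 13 fell and none rose (median -0.43), and of 14 GABA receptor genes 11 fell and 1 rose (median -0.37). Without the length and GC trend these counts were 4 fallen and 1 risen, and 1 fallen and 1 risen, and without GF mouse 6 or GF mouse 7, 7 GABA receptor genes fell. Grin3a, an NMDA receptor subunit that lowers calcium entry, had 63.1, 67.3 and 51.0 CPM in SPF, 26.1, 32.8 and 24.1 in GF and 66.5, 75.1 and 63.0 in CGF, a fall of 1.14 (SE 0.14, adjusted p = 6.1e-05, edgeR; -0.66 in thinned nuclei, adjusted p = 0.16). Grik3, a kainate receptor subunit, fell by 0.91 (SE 0.23), but GF mouse 7, at 74.8 CPM, was close to the lowest SPF mouse at 82.1, and the CGF mice had 57.4, 56.9 and 37.7. Its call was lost in thinned nuclei (-0.48) and without the length and GC trend (-0.56). The GABA-B subunit gene Gabbr1 rose, from 141 to 156 CPM in SPF to 177 to 205 in GF (0.35, SE 0.08). In other glutamatergic neurons 11 of 22 and 8 of 14 fell.

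Ion channel genes followed. Of 33 genes of potassium channels, leak channels among them, their accessory subunits and HCN channels 17 fell and 2 rose (median -0.31), and of 22 sodium and calcium channel genes 16 fell and 1 rose (median -0.44); 8 and 7 of them fell without the length and GC trend, where 3 and 1 rose. Without GF mouse 6 or SPF mouse 30, 1 potassium channel gene rose; 3 sodium and calcium channel genes rose without CGF mouse 17, and 2 without CGF mouse 19 or SPF mouse 32. Kcnq5, an M-current subunit, had 489, 448 and 424 CPM in SPF, 196, 145 and 263 in GF and 453, 274 and 270 in CGF, with a fall in GF of 1.17 (SE 0.21, adjusted p = 0.00071, edgeR). The CGF mice spread from the SPF to the GF level, so that the CGF difference of -0.45 (SE 0.20) did not pass (adjusted p = 0.32). The T-type calcium channel gene Cacna1h was lower in both isolator groups and is described with CGF. In other glutamatergic neurons 14 of 33 and 14 of 23 fell.

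Synaptic adhesion genes gave 17 falls and 1 rise among 24 (median -0.41), and 3 falls and no rise without the length and GC trend, nor did any rise without GF mouse 7 or SPF mouse 31. Nrxn3, a presynaptic neurexin with a very long gene, had 1430, 973 and 1692 CPM in SPF, 845, 779 and 654 in GF and 1195, 1404 and 1588 in CGF, with a fall of 0.84 (SE 0.17, adjusted p = 0.0015, edgeR; -0.44 without the trend, adjusted p = 0.066). Cdh11, a cadherin, fell by 0.81 (SE 0.11). Plasticity and signalling genes were mixed, with 4 of 22 rising and 7 falling (median -0.07), and 7 rising and 2 falling without the trend. Nrgn, for the calmodulin-binding protein neurogranin, rose by 0.98 (SE 0.12) from 250, 275 and 341 CPM to 558, 589 and 564, with 208, 217 and 279 in CGF. Its share of nuclei at 3000 UMIs, 82.9% in GF granule neurons, was near the 78.1% of GF oligodendrocyte-marker nuclei, and its level there also went from 395 to 913 plain CPM (unthinned granule share 98.1% to 98.3%). Adcy8, a calcium-activated adenylyl cyclase, fell by 0.87 (SE 0.11), from 84.5 to 95.9 CPM to 45.4 to 53.5.

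**Figure D3:**
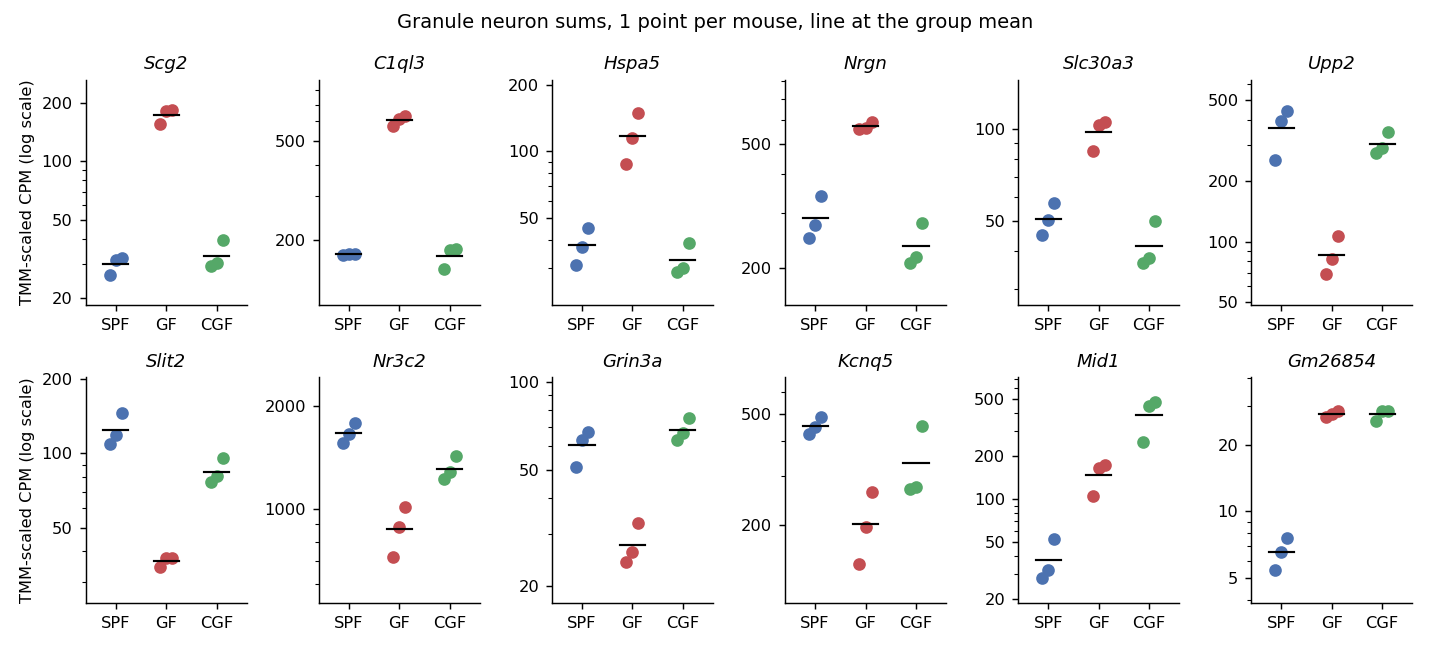
Level in granule neurons (TMM-scaled CPM, log scale) of 12 named genes; each point is a mouse, the line the mean of 3 mice, and points of a group are set in order of value. Scg2, C1ql3, Hspa5, Nrgn and Slc30a3 are higher and Upp2, Slit2, Nr3c2, Grin3a and Kcnq5 lower in GF than in SPF, Scg2 at 155 to 183 against 26.3 to 31.9, whereas Mid1 and Gm26854 are higher in both GF and CGF.

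Upp2, Gm42418, AC149090.1, Slit2 and Sema6a had the largest falls in GF among called genes outside the lists that averaged at least 20 CPM. Only genes whose GF and SPF mice did not overlap were ranked. Upp2, a uridine phosphorylase, had 255, 444 and 396 CPM in SPF, 106, 69.0 and 82.0 in GF and 349, 289 and 274 in CGF (-2.08, SE 0.19, adjusted p = 1.4e-05, edgeR). It fell in the other glutamatergic neurons too (-1.78, SE 0.16), and in oligodendrocyte-marker nuclei its mean went from 234 to 55.9 plain CPM. Slit2, a secreted axon guidance protein, had 119, 146 and 109 CPM in SPF, 34.5, 37.7 and 37.7 in GF and 80.9, 95.8 and 76.5 in CGF, with differences from SPF of -1.77 for GF (SE 0.12, adjusted p = 2.4e-06) and -0.57 for CGF (SE 0.11, adjusted p = 0.031, edgeR). The guidance receptor gene Sema6a went from 27.4 to 30.5 CPM in SPF to 8.98 to 11.3 in GF (-1.49, SE 0.14). Gm42418 (-2.06, SE 0.27) overlaps ribosomal RNA sequence, and AC149090.1 (-1.86, SE 0.46) lies on an unplaced scaffold, so that the reads of both are uncertain. In other glutamatergic neurons AC149090.1 differed from SPF by -1.89 in GF and, without passing, by -1.87 in CGF (adjusted p = 0.19, edgeR).

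Neurotrophin and neuropeptide genes rose in 5 of 13 cases and fell in 2 (median 0.58; 4 and 2 without the length and GC trend). Besides Scg2, Penk, for proenkephalin, rose at very low levels, from 1.22 to 2.10 CPM to 2.78 to 7.19 (1.35, SE 0.43, adjusted p = 0.021, edgeR), with the call kept in 10 of 15 alternatives (adjusted p up to 0.18). The neurotrophin receptor gene Ntrk3 fell by 0.58 (SE 0.08), from 1543, 1638 and 1579 CPM in SPF to 1076, 968 and 1140 in GF, with 1458, 1593 and 1429 in CGF. Its ligand gene Ntf3 fell by 0.77 (SE 0.16), at 57.5 to 80.9 CPM in SPF and 31.2 to 49.5 in GF. Among 10 genes of corticosteroid signalling 2 rose and 3 fell, or none and 2 without the trend, and 1 rose where CGF mouse 18, GF mouse 5, GF mouse 6, SPF mouse 30 or SPF mouse 31 was left out. The mineralocorticoid receptor gene Nr3c2 had 1551, 1781 and 1649 CPM in SPF, 1007, 719 and 880 in GF and 1428, 1283 and 1218 in CGF, a fall of 0.93 (SE 0.11, adjusted p = 5.2e-05, edgeR). Its target Sgk1 fell by 0.82 (SE 0.21), and Fkbp4, a co-chaperone of the receptor, rose by 0.77 (SE 0.17). Of 13 modulator receptor genes tested 3 fell, the largest being the adenosine receptor gene Adora1 (-0.40, SE 0.09), and none rose; without the trend 1 fell, as also without GF mouse 6, GF mouse 7 or SPF mouse 30. Adora1 had 43.8 to 46.8 CPM in SPF, 33.6 to 35.9 in GF and 36.4 to 38.7 in CGF, where the difference from SPF did not pass (-0.29, adjusted p = 0.16), and in thinned nuclei its GF difference was -0.16 (adjusted p = 0.78).

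Immediate early genes, which mark recent activity or stress, rose in 15 of 18 tested genes and fell in none (median 1.13; 7 rose without the length and GC trend). Fos had 1.95, 0.992 and 1.68 CPM in SPF, 11.6, 8.34 and 10.2 in GF and 2.15, 0.759 and 1.76 in CGF (2.75, SE 0.33, adjusted p = 6.3e-05, edgeR). Most of these genes were found no more often than in oligodendrocyte-marker nuclei: at 3000 UMIs Fos was found in 2.598% of GF granule nuclei against 3.29% of GF oligodendrocyte-marker nuclei, Junb in 13.2% against 16.6%, Egr1 in 8.36% against 15.3% and Arc in 4.09% against 9.25%. In GF, 15 of 19 genes were no more frequent in granule neurons than in oligodendrocyte-marker nuclei, in SPF 17 and in CGF 14. The plain CPM of the list went from 196 in SPF to 442 in GF in granule neurons and from 322 to 585 in oligodendrocyte-marker nuclei. The remaining 4 genes in GF were more frequent in granule neurons, 3 of them above every oligodendrocyte-marker library. In the test of the difference between classes described further on, 1 of 19 immediate early genes rose more in granule neurons. The part of free RNA in the rise was not tested.

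Most genes of energy metabolism and ribosomes and fewer of protein folding rose in GF granule neurons, and their summed levels were higher in GF in oligodendrocyte-marker nuclei too. Of 76 genes of oxidative phosphorylation 63 rose (median 0.94), of 74 ribosomal protein genes 56 rose (median 1.09) and of 12 heat shock genes 5 rose (median 0.48), with no fall in any of the 3 lists; without the length and GC trend 33, 26 and 3 rose, and 1, 2 and 0 fell. Without SPF mouse 32, 10 heat shock genes rose. Hspa5, the chaperone BiP of the endoplasmic reticulum, had 37.1, 30.9 and 45.3 CPM in SPF, 114, 87.8 and 149 in GF and 28.7, 29.8 and 38.6 in CGF (1.64, SE 0.18, adjusted p = 4e-05, edgeR), and its share of nuclei at 3000 UMIs was 28.9% in GF granule neurons and 30.1% in GF oligodendrocyte-marker nuclei (unthinned granule share 46.1% to 63.2%). The cytochrome oxidase-associated gene Ndufa4 went from 38.0 to 56.0 CPM to 139 to 154 (1.65, SE 0.15). The summed list of oxidative phosphorylation was 1.93 times higher in GF granule neurons than in SPF and 2.15 times in oligodendrocyte-marker nuclei, the ribosomal list 2.41 and 2.32 times, and the heat shock list 1.56 and 1.66 times.

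All 12 mitochondrially encoded genes tested rose, with a median of 2.09, and 11 of them without the length and GC trend. mt-Co3, a cytochrome oxidase subunit, had 382, 253 and 793 CPM in SPF, 1998, 2459 and 3350 in GF and 104, 209 and 307 in CGF (2.45, SE 0.40, adjusted p = 0.00039, edgeR). The mice of a group spread widely, but GF did not overlap SPF or CGF. This list was 4.81 times higher in GF than in SPF in granule neurons, against 2.43 times in other glutamatergic and 2.56 times in oligodendrocyte-marker nuclei. Mitochondrial RNA does not belong to a nucleus, and how much of it came with each preparation was not tested.

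Astrocyte and oligodendrocyte markers were lower in the granule neurons of GF mice, and in their other glutamatergic neurons too. The summed lists were 0.77 and 0.64 times the SPF level in granule neurons and 0.66 and 0.59 times in the other class. In granule neurons the astrocyte list summed to 264 to 393 plain CPM in SPF, 216 to 254 in GF and 314 to 331 in CGF. The oligodendrocyte list summed there to 210 to 302, 152 to 172 and 212 to 231. GF did not overlap the others in either list. Of 3 genes tested in each list, 2 fell in GF and none rose, with 1 fall in each without the length and GC trend and without GF mouse 5 or SPF mouse 32, and 1 in the oligodendrocyte list also without GF mouse 6 or SPF mouse 30. Mbp, for myelin basic protein, fell by 0.26 (SE 0.09, adjusted p = 0.031, edgeR), but its difference was 0.0031 without the trend, and its call was kept in 9 of 16 alternatives. The call of Slc1a2, the astrocytic glutamate transporter GLT-1, was kept in 12 of 16 (-0.49, or -0.21 without the trend). The microglial list summed to 15.3 to 24.9 plain CPM in SPF, 24.4 to 30.8 in GF and 14.7 to 20.3 in CGF; none of its 4 genes passed for GF against SPF, 2 rose without SPF mouse 32 and 1 without the trend, and 3 were higher in GF than in CGF, or 1 without the trend and without CGF mouse 19. Reln, for the secreted protein reelin and the 1 gene of the Cajal-Retzius list that was tested, fell by 1.10 (SE 0.29, adjusted p = 0.0078, edgeR; -0.71 without the trend, adjusted p = 0.074), and that list summed to 11.2 to 17.7 plain CPM in SPF, 5.22 to 10.9 in GF and 10.6 to 14.3 in CGF. Of the 7 interneuron genes 1 rose, Pvalb, for the calcium buffer parvalbumin (1.13, SE 0.37, adjusted p = 0.025), from 1.32 to 3.99 CPM to 5.18 to 6.51. Its call was kept in 11 of 15 alternatives and lost without the trend and without GF mouse 5, GF mouse 7 or SPF mouse 31, and its plain CPM in oligodendrocyte-marker nuclei went from 5.12 to 16.9. The interneuron list summed to 89.4 to 113 in SPF, 98.1 to 139 in GF and 79.8 to 88.3 in CGF. The part of free RNA in the differences between groups was not tested.

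**Figure D4:**
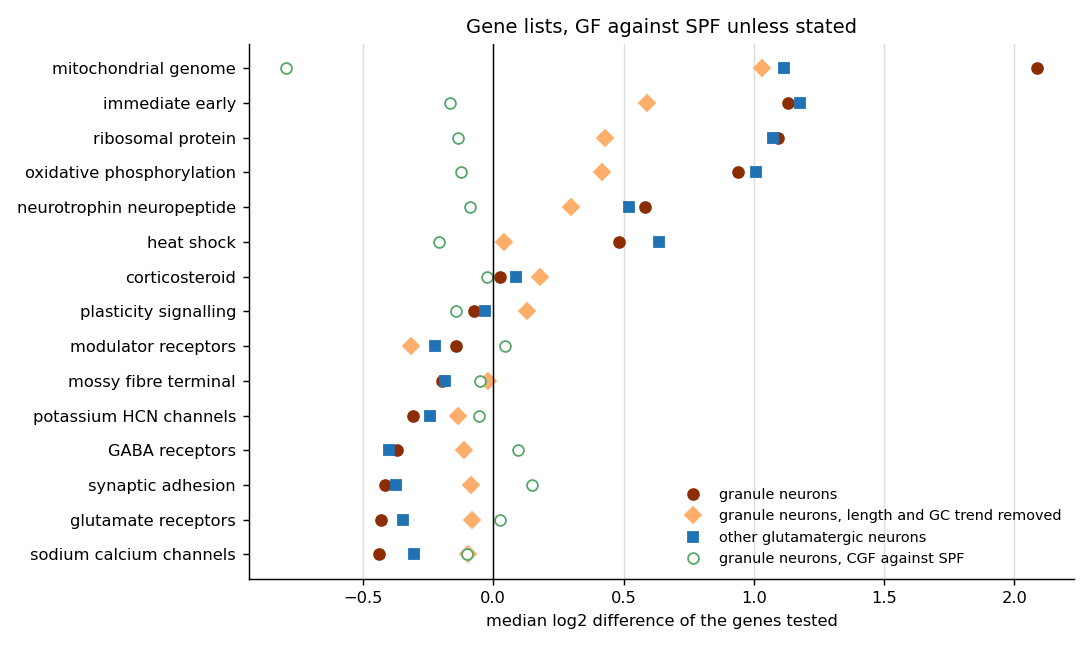
Median log2 difference over the tested genes of 15 gene lists for GF against SPF in granule neurons (circles), the same without the length and GC trend (diamonds), in other glutamatergic neurons (squares), and for CGF against SPF in granule neurons (open circles). The synaptic and channel lists lie left of 0 down to -0.44 and nearer to 0 without the trend, the mitochondrial, immediate early, ribosomal and oxidative phosphorylation lists lie right of 0.9 for GF, and the 2 classes lie close together except for the mitochondrial genome, at 2.09 and 1.12.

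Few genes passed for CGF against SPF. Among those averaging at least 20 CPM without overlap of the mice, Mid1 and Fbn2 differed most. Mid1, a microtubule-associated ubiquitin ligase whose gene lies at the pseudoautosomal boundary in mice, had 28.0, 31.7 and 52.7 CPM in SPF, 250, 476 and 449 in CGF and 165, 105 and 174 in GF, with 3.38 for CGF (SE 0.28, adjusted p = 9.5e-05) and 1.99 for GF (SE 0.27, adjusted p = 0.00014, edgeR). The same was found in the other glutamatergic neurons (2.99 for CGF, SE 0.29), and in oligodendrocyte-marker nuclei the means were 28.6, 230 and 86.5 plain CPM in SPF, CGF and GF. Gm26854, a non-coding RNA, had 6.58, 5.45 and 7.56 CPM in SPF, 25.6, 28.3 and 28.5 in CGF and 27.6, 26.8 and 28.5 in GF, with 2.08 for CGF (SE 0.15, adjusted p = 3.7e-05) and 2.09 for GF (SE 0.15, adjusted p = 2.6e-06). Both genes were higher in GF and in CGF than in SPF, the group raised in other conditions.

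Fbn2, for the extracellular matrix protein fibrillin-2, had 11.2, 10.9 and 10.5 CPM in SPF, 63.2, 74.3 and 85.3 in CGF and 27.6, 24.2 and 3.70 in GF (CGF 2.77, SE 0.39, adjusted p = 0.0052, edgeR). The GF mice spread from below SPF to above it. Oligodendrocyte-marker nuclei held 55.4 plain CPM in SPF and 115 in CGF. Angpt1, an angiopoietin, rose by 1.65 in CGF (SE 0.21, adjusted p = 0.0022), with 11.7, 25.1 and 24.3 CPM in SPF and 71.0, 71.8 and 53.1 in CGF. Clmp, an adhesion molecule, rose by 1.90 (SE 0.22, adjusted p = 0.0011), with 8.43 to 12.7 CPM in SPF, 27.8 to 52.7 in CGF and 19.5 to 22.2 in GF. Among called genes averaging at least 20 CPM whose CGF and SPF mice did not overlap, Tmem59l, Arf5, Pmepa1, Adamts6 and Cox19 fell most. Their differences were -0.94 to -1.16, with adjusted p of 0.014 to 0.037 (edgeR). Of all called genes, 15 fell by at least 2-fold. The call was kept in 13 of 16 alternatives for Tmem59l, in 9 each for Arf5, Pmepa1 and Adamts6, and in 8 for Cox19, which helps assemble cytochrome oxidase. It was lost without CGF mouse 17 for each of the 5.

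Few of the listed genes passed in CGF. Cacna1h had 111, 118 and 118 CPM in SPF, 68.7, 68.3 and 72.8 in CGF and 68.0, 73.4 and 61.1 in GF, with -0.73 for CGF (SE 0.08, adjusted p = 0.0011) and -0.78 for GF (SE 0.08, adjusted p = 2.9e-05, edgeR). Cacna1g, another T-type channel gene, fell by 0.88 in CGF (SE 0.16, adjusted p = 0.022, edgeR), from 20.4 to 29.3 CPM to 12.1 to 14.6. It was also lower in GF than in SPF, with the call kept in all 15 alternatives, at -0.88 to -0.56. Htr4, a serotonin receptor gene, had 273, 269 and 283 CPM in SPF, 389, 447 and 379 in CGF and 249, 242 and 217 in GF; it rose by 0.56 in CGF (SE 0.08, adjusted p = 0.0075) and differed by -0.22 in GF (SE 0.08, adjusted p = 0.049), a difference that turned to 0.08 with the length and GC trend removed and also to 0.08 in thinned nuclei. No gene of the oxidative phosphorylation, ribosomal, mitochondrial, heat shock, corticosteroid or neurotrophin lists passed in CGF, and 1 of 18 immediate early genes did, but none in 7 of the 9 fits without a mouse. Without the filter on low counts 9 mitochondrial genes, 3 of oxidative phosphorylation, 2 each of the ribosomal and heat shock lists and 1 each of the corticosteroid and neurotrophin lists fell.

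In GF against CGF, of 76 genes of oxidative phosphorylation 62 were higher in GF and 1 lower, of 18 immediate early genes 14 were higher, of 22 plasticity and signalling genes 8 were higher and 6 lower, and of 24 adhesion genes 18 were lower and 2 higher. Without the length and GC trend 39 genes of oxidative phosphorylation were higher and 1 lower, 7 immediate early genes were higher, 8 plasticity genes were higher and 2 lower, and 4 adhesion genes were lower and 2 higher. Without CGF mouse 17, CGF mouse 18 or GF mouse 6, 5 plasticity genes and 1 adhesion gene were higher, and without GF mouse 7 no adhesion gene was; without CGF mouse 18 or GF mouse 7 no gene of oxidative phosphorylation was lower. Cdh7, a cadherin, had 16.5, 8.34 and 10.9 CPM in GF and 43.1, 51.3 and 44.1 in CGF, with 14.4, 13.2 and 22.0 in SPF (GF against CGF -1.90, SE 0.22, adjusted p = 3.3e-05, edgeR). Gm1604a had 22.4, 18.4 and 22.7 CPM in GF and 90.2, 75.6 and 109 in CGF (-2.11, SE 0.26). Among called genes averaging at least 20 CPM without overlap of the 2 groups, the mitochondrial genes had the largest rises, with 3.65 for mt-Co3 (SE 0.42).

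Whether granule neurons changed differently from the other glutamatergic neurons was tested as an interaction of class and group, with each mouse as a block, over 16143 genes. The GF against SPF difference differed between the classes in 139 genes (0.861%), 109 more positive in granule neurons and 30 more negative. For CGF against SPF it differed in 18 genes (0.112%) and for GF against CGF in 116 (0.719%). Without the mouse block 0, 4 and 0 passed, with 982, 453 and 903 at an unadjusted p under 0.05. The balance of signs for GF against SPF depended on the nuclei compared. Against the 4433 CA1-marker nuclei 61 genes were more positive in granule neurons and 19 more negative, but against the 460 CA3-marker nuclei 9 and 22. The CA3-marker class held 29 to 68 nuclei per library, so that a call lost against it also goes with fewer nuclei. In thinned nuclei 26 were more positive and 18 more negative.

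C1ql3, Scg2 and Pcdh8 rose more in granule neurons. On the scale of this fit C1ql3 went from 175 to 177 CPM in SPF to 581 to 631 in GF granule neurons, and from 38.0 to 44.9 to 84.1 to 92.1 in the other class, which makes an extra rise of 0.69 (SE 0.09, adjusted p = 0.0011, edgeR). For Scg2 the other class went from 19.9, 19.4 and 28.5 CPM to 59.8, 67.5 and 74.1, and the extra rise in granule neurons was 0.94 (SE 0.13, adjusted p = 0.0011). Pcdh8 had 16.7, 14.7 and 15.6 CPM in SPF and 44.0, 50.3 and 54.2 in GF granule neurons, against 8.62, 9.83 and 13.2 and 13.1, 14.4 and 15.0 in the other class (extra rise 1.23, SE 0.18, adjusted p = 0.0013). Its level in oligodendrocyte-marker nuclei went from 19.6 to 24.5 plain CPM. These 3 genes were named through their lists or through GF against CGF, and were singled out for this class difference after their values were seen. A C1ql2 UMI could make a nucleus a member and kept it out of the other class, and C1ql2 was higher in GF members. Its part in the extra rises of these 3 genes was not tested. Each kept this call in 12 of 15 alternatives and lost it in thinned nuclei, with no replicate block and against CA3-marker nuclei, where the extra rise was 0.97 for C1ql3, 0.54 for Scg2 and 0.79 for Pcdh8 (adjusted p = 0.17, 0.76 and 0.68, edgeR). For GF against CGF the extra rise was 0.87 for C1ql3, 0.73 for Scg2 and 1.05 for Pcdh8, and against CA3-marker nuclei 0.46, -0.23 and -0.12; these calls were kept in 12, 9 and 9 of 15 alternatives.

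Slc1a3, the glial glutamate transporter GLAST, had 52.0, 59.7 and 73.5 CPM in SPF and 52.0, 54.9 and 54.2 in GF granule neurons, while it went from 86.7, 115 and 120 to 34.8, 41.6 and 41.1 in the other class (1.27, SE 0.18, adjusted p = 0.0013). Against CA3-marker nuclei alone the difference was 0.34 (adjusted p = 0.82). Palmd, a palmdelphin gene, went from 23.1 to 42.1 CPM to 43.4 to 53.8 in granule neurons and from 44.6 to 57.3 to 31.4 to 35.8 in the other class (1.32, SE 0.21). Of the mitochondrial genome 11 of 13 genes rose more in granule neurons, and for GF against CGF 7 of 13. For GF against SPF mt-Co3 rose more by 1.04 (SE 0.13, adjusted p = 0.0011 by edgeR, call kept in 12 of 15 alternatives). Of the 7 called for GF against CGF, only mt-Co3 kept its call without GF mouse 7. None of the 7 kept it in thinned nuclei, with no block or against CA1-marker nuclei. Against CA3-marker nuclei none of the 12 that could be tested passed in either comparison: mt-Co3 differed by 0.68 for GF against SPF (adjusted p = 0.66), and mt-Cytb, at 0.98 for GF against CGF, by -0.19 (call kept in 10 of 15 alternatives). Mdga1, an adhesion protein that blocks neuroligin, was the most negative of the called genes with at least 20 CPM in granule neurons. It had 23.04 to 49.0 CPM in SPF and 17.5 to 19.9 in GF granule neurons, against 57.8 to 61.2 and 61.9 to 79.8 in the other class (-1.27, SE 0.21, adjusted p = 0.0038, edgeR). Grik3 followed with -1.05 (SE 0.14, adjusted p = 0.0011), or -0.52 in thinned nuclei (adjusted p = 0.74).

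Among called genes of at least 20 CPM in granule neurons, the class difference for CGF against SPF was largest in Fbn2 and Clmp. Fbn2 lay at 64.9 to 79.9 CPM in SPF and 69.2 to 74.3 in CGF in the other class, which makes a class difference of 2.80 (SE 0.31, adjusted p = 0.00016, edgeR). Clmp, at 79.0 to 99.9 CPM in SPF in the other class and 74.9 to 115 in CGF, gave 1.85 (SE 0.19, adjusted p = 8.8e-05). Spink10, a protease inhibitor gene, had 57.2 to 76.4 CPM in SPF and 150 to 178 in CGF granule neurons against 72.2 to 91.1 and 80.3 to 85.0 (1.21, SE 0.12, adjusted p = 8.8e-05). These 3 genes also passed without the mouse block.

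**Figure D5:**
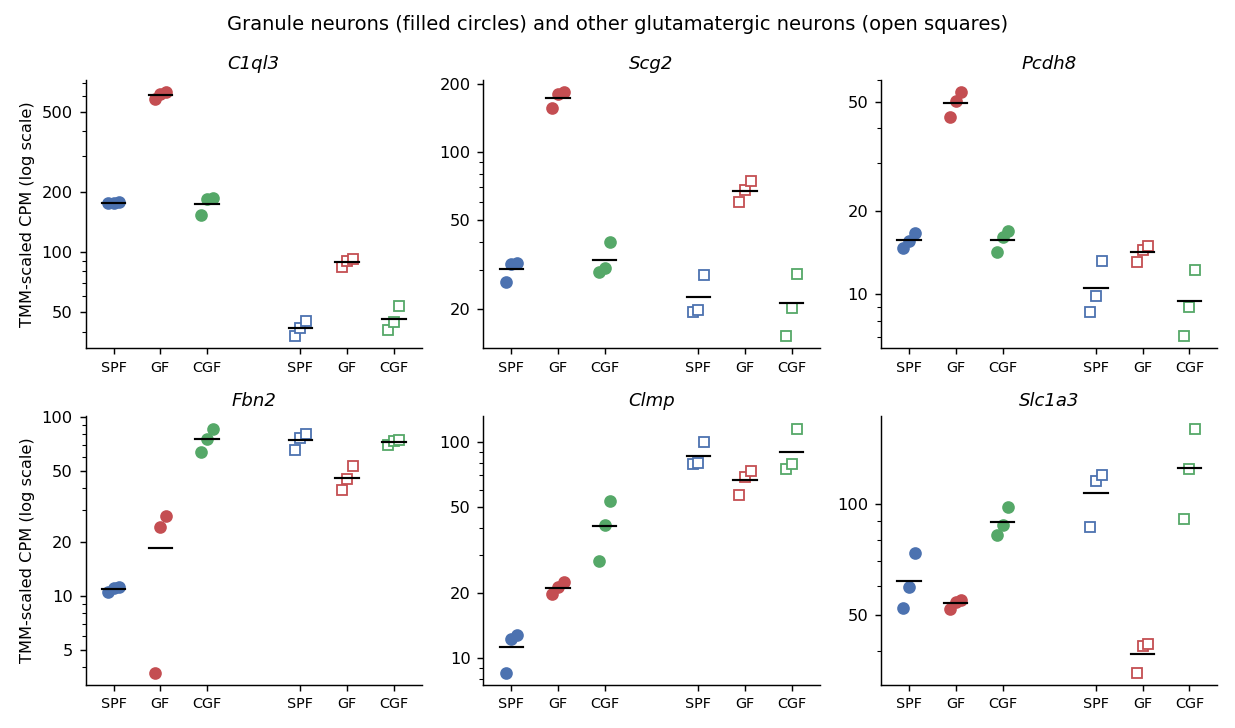
Level (TMM-scaled CPM, log scale) of 6 genes in granule neurons (filled circles) and other glutamatergic neurons (open squares) of the same mice; points of a group are set in order of value and lines are means of 3 mice. C1ql3, Scg2 and Pcdh8 rise in GF by more in granule neurons, Fbn2 and Clmp rise in CGF by more in granule neurons, and Slc1a3 is lower in GF in the other class, at 34.8 to 41.6 against 86.7 to 120.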

How the data were processed

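Per the labels and the study's methods, nuclei of frozen tissue were captured with 10x Genomics 3' V3.1 chemistry; the submitters' notes name CASAVA 1.8, Cell Ranger and mm10, and the file headers give Cell Ranger 3.1.0. The deposited files hold raw UMI counts, whole numbers per gene (30905) and nucleus, with no normalization by the authors. Whether intronic reads were counted is not given in the sources used here. Groups came from the labels, and mouse numbers join the 2 regions only.

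Kept nuclei had at least 200 genes and at most 10% mitochondrial UMIs (removed: 828 of 72226 hippocampal barcodes, all for mitochondrial UMIs). The GF libraries lost 189, 237 and 220 of them, the SPF libraries 34, 20 and 60 and the CGF libraries 24, 17 and 27. Mitochondrial shares are those left after this cut. No cells were clustered. Counts were summed per mouse and class and tested in edgeR 4.0.16 (R 4.3.3; filterByExpr, TMM, glmQLFit, glmQLFTest) over all 9 mice; SE is the absolute log2 difference divided by the root of F. The class difference was fitted on 18 sums with the mouse as a block. Shares were tested by exact permutation, 1680 regroupings for 3 groups. Thinned values are 1 seeded draw of 3000 UMIs per nucleus, shallower nuclei left out. Shares of nuclei in which a gene was found used classes chosen before thinning: 417 to 713 granule and 133 to 451 oligodendrocyte-marker nuclei per library remained. For the tests in thinned nuclei and the thinned share of granule neurons the rule was applied again after thinning. This left 62 to 169 members per library, so that a call lost there goes with fewer nuclei as well as less depth. The oligodendrocyte-marker nuclei kept are the deeper of their kind. Lengths and GC were from GENCODE vM21 (30843 genes matched).

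Named genes were, per list, up to 2 called genes with the largest rise and fall in GF without overlap of the mice; per comparison, the 5 largest rises and falls of at least 20 CPM (of class differences likewise); 10 identity genes; and the rule genes. Members, lists and this rule were chosen with earlier results of these data known. Simulated data had 100 genes changed 1.5-fold and 100 changed 2-fold, as many up as down, and no length and GC trend. On them the GF against SPF test recovered 44% of genes changed 1.5-fold and 78% of those changed 2-fold, with 5 false calls among 13023 genes. The class test recovered 22% and 65%, with 4 among 16007. In the mice 5568 genes passed for GF against SPF and many went with that trend, so that these rates need not hold there. Alternatives were DESeq2 1.42.0, no filter, 6 mice only, thinning, 3 Prox1 UMIs, no likely doublets, the length and GC trend, CA1-marker or CA3-marker nuclei as the other class, no block, and leaving out each mouse. Intervals of shares cover counting error only. Some genes chosen by the rule are not reported here.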

Additional observations from a re-analysis of the deposited data

Results flagged for a closer look

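Each gene here was looked at again because a test of the difference itself (edgeR's quasi-likelihood test of the interaction of class and group, adjusted over 16143 genes) found that its change between groups of mice differed between granule neurons and the other glutamatergic neurons. Values are log2 and positive where granule neurons changed by more in the upward direction; among the genes tested the 5 largest of each sign, with at least 20 CPM in granule neurons, are given for each comparison.

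For GF against SPF the values were -1.27 for Mdga1, -1.05 for Grik3, -1.03 for the non-coding Gm2087, -0.94 for Sntg2, a syntrophin, and -0.88 for Tenm3, a teneurin of wiring specificity. On the other side were Arhgap24 at 1.65, Gm38505 at 1.64, Clmp at 1.33, Palmd at 1.32 and Slc1a3 at 1.27. The SPF mice were unequal in granule neurons for Arhgap24, at 12.0, 8.36 and 46.1 CPM, and for Tenm3, at 309.6, 161 and 210.1 CPM.

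For CGF against SPF the values were -1.30 for Mdga1, -0.65 for Cacna1h, -0.64 for Ror1, a Wnt receptor, -0.56 for the non-coding 2610035D17Rik and -0.52 for the transporter gene Slco3a1. The positive values were 2.80 for Fbn2, 1.85 for Clmp, 1.21 for Spink10, 1.13 for the cadherin gene Cdh18 and 0.79 for Plcxd3. In Cdh18 the granule neurons of CGF mice had 90.7 to 145 CPM against 48.5 to 71.9 in SPF.

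For GF against CGF they were -1.36 for Fbn2, -1.20 for both Cdh18 and the synaptic vesicle gene Sv2c, -1.11 for the sodium channel gene Scn9a and -1.03 for Nhs, and then 1.11 for Pcdh20, 1.08 for Phka1, 1.05 for Pcdh8, 0.98 for mt-Cytb and 0.93 for Erbin. Pcdh20, a protocadherin, had 51.8 to 61.8 CPM in GF and 28.5 to 31.6 in CGF granule neurons and 14.6 to 15.8 and 12.5 to 21.7 in the other class. In Erbin and Phka1 the granule neurons of both groups were alike, at 50.9 to 66.5 against 53.3 to 69.2 CPM for Erbin, while the other class went from 17.4 to 30.5 in CGF to 11.05 to 13.9 in GF.

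Over 15 alternatives the call was kept in 4 for Plcxd3, in 7 for Arhgap24, Tenm3 and Erbin, in 8 for Nhs, Phka1 and Ror1, in 9 for Gm38505, Scn9a, Pcdh8 and, in GF against CGF, Fbn2, in 10 for Sv2c, mt-Cytb and Slco3a1, and in 11 to 15 for the rest.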

How the results depend on the processing

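There were 3 mice per group, 2 isolator groups against a differently raised one, and a part of free RNA that was not tested. The tests therefore compare these mice and not the source of a difference. GF against SPF gave 5568 genes and between 4606 and 5522 with any 1 mouse left out, but 3366 without the length and GC trend and 1184 of 5431 tested in thinned nuclei. GF against CGF (5883) gave 4889 to 6052 with a mouse left out, 3358 and 1168. CGF against SPF (136) gave 225 with DESeq2, 618 without the filter, 27 when thinned and 36 to 184 with a mouse left out: 36 without CGF mouse 17, 43 without 18, 65 without 19, 56, 86 and 78 without SPF mice 30, 31 and 32, and 89 without GF mouse 7.

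For class differences GF against SPF (139) the counts were 73 with DESeq2, 457 without the filter, 44 thinned, 80 against CA1-marker and 31 against CA3-marker nuclei, and 58 to 193 with a mouse left out (58 without GF mouse 7). For CGF against SPF (18) they were 159 without the filter, 28 against CA1-marker nuclei and 10 to 24 with a mouse left out (10 without GF mouse 7). For GF against CGF (116) they were 52 with DESeq2, 424 without the filter, 19 thinned, 66 and 56 against CA1-marker and CA3-marker nuclei, and 24 to 137 with a mouse left out (24 without GF mouse 7, 75 without GF mouse 5, 69 and 52 without CGF mice 17 and 19). With no replicate block 0, 4 and 0 genes passed. Between groups no paired analysis was possible because the groups share no mouse number.

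The difference in share was -1.30 percentage points for GF minus SPF (-2.27 to -0.16 with a mouse left out), -1.01 for CGF minus SPF (-1.66 to 0.135) and -0.29 for GF minus CGF (-1.27 to 0.38), the last 0.38 when thinned and 0.096 with a single Prox1 UMI required. Of 1323 alternative values of 84 differences between groups of 78 named genes, 1178 kept direction and call, 142 lost the call and 3 turned: Mbp to 0.0031 without the length and GC trend, and Htr4, in GF against SPF, to 0.084 when thinned and 0.082 without the trend. Of 450 alternative values of 30 class differences of 26 genes, 318 kept both, 129 lost the call and 3 turned, all in GF against CGF: Nhs to 0.39 when thinned, and Pcdh8 to -0.12 and mt-Cytb to -0.19 against CA3-marker nuclei. The causes were not tested.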
